A study of Rattus norvegicus with 30 samples.

Results

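rno-miR-125a-5p and rno-miR-351-5p, below written without the rat prefix, are mature microRNAs with an identical seed, the stretch by which a miRNA recognises its target mRNAs. They were taken by name from the tables of urinary exosome miRNAs (exo-miRs) of days 1, 2, 3, 7 and 14 after renal surgery, and are 2 of the 122 exo-miRs listed on any day. Both are listed on all 5 days, as are 56 exo-miRs in all. In the recovery state (days 7 and 14) the tables used here list miR-351-5p above 0 in every rat with ischemia-reperfusion injury (IRI) and at 0 in every sham rat, while miR-125a-5p was at 16246 to 47635 in IRI libraries and at 0 to 28890 in sham libraries (scaled read counts). These IRI levels of miR-351-5p rest on an estimated 2 to 8 reads per library. Another list of counts issued with the study, not used here, holds reads of it in sham libraries of those days, so the zeros are not settled. At days 1, 2 and 3 the groups overlapped for both miRNAs. The study had singled out this pair for its levels at days 7 and 14 in these same libraries, so the tests of those days are not independent evidence.

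The rats were male Sprague Dawley rats, 10 weeks old when obtained. In the 3 IRI rats (numbered 1, 2 and 13) the vessels of both kidneys were clamped for 25 minutes and then released. The 3 sham rats (3, 6 and 9) had the same operation without the clamp. Urine of the same 6 rats was collected on each day, which gave 30 libraries, 3 per group and day, with the rat as the replicate. The exosomes came from whole urine and were not sorted by the cell that released them, so fewer vesicles of a kind and less RNA per vesicle cannot be told apart.

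A miRNA is cut from the stem of a hairpin precursor, and guides an Argonaute protein to mRNAs that pair with its seed, which lowers their translation or stability. miR-125a belongs to the family named after lin-4, the founding miRNA of Caenorhabditis elegans. miR-351 is a rodent miRNA that lies in a cluster with miR-322 and miR-503. Exosomes are small vesicles of endosomal origin that the epithelial cells of the kidney release into the urine, and miRNAs travel in or on them.

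The mature sequences below are from RefSeq (GRCr8 build) and are printed to compare what follows the seed. Capitals mark the seed (bases 2 to 8, counted from the 5′ end).
miR-125a-5p: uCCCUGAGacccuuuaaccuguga
miR-351-5p: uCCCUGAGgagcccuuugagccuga
miR-125b-5p: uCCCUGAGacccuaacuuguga
miR-125a-5p lies at chr1:67350689-67350712 on the plus strand, and miR-351-5p at chrX:137725157-137725181 on the minus strand. miR-125a-5p and miR-351-5p match over their first 8 bases. The longest stretch they share after that is CCCUUU, which starts at base 10 of miR-125a-5p and at base 12 of miR-351-5p. In a global alignment 20 of 26 columns were identical (76.9%). miR-125b-5p is closer to miR-125a-5p, with the first 13 bases shared and 87.5% identity, and at 67.9% identity to miR-351-5p. Of the 122 listed exo-miRs 109 were matched to a RefSeq mature sequence by name, with 81 different seeds, and these 3 were the only ones with the seed CCCUGAG among them. They were also the only 3 among the 693 mature rat miRNAs of the sequence table.

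The precursors are printed with the mature 5′ arm in capitals, since this is the arm the tables list.
Mir125a: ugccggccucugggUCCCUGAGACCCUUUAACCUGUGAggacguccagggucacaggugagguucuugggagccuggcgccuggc
Mir351: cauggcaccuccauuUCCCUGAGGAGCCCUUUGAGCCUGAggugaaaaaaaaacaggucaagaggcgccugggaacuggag
The arm occupies bases 15 to 38 of the 85 bases of Mir125a and bases 16 to 40 of the 81 bases of Mir351. The letters GGAG, a motif described for miRNAs sorted into exosomes of T cells, were searched on the mature strand. They occur in miR-351-5p from base 8, where their first G is also the last base of the seed, and in neither miR-125a-5p nor miR-125b-5p. They occur in 11 of the 109 listed exo-miRs with a sequence (10.1%). With GGAC, GGGC and GGGG also allowed, 23 of 109 had a match (21.1%), miR-351-5p among them and miR-125a-5p and miR-125b-5p not. A match says that these letters are present, and nothing about sorting.

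The values are read counts scaled by the authors, in 1 table for each day. In each library the low values were whole multiples of 1 step, taken as the worth of 1 read, and the listed exo-miRs then came to 211 to 50705 reads per library. All read numbers below, with their intervals and limits, rest on this estimate and not on deposited counts. As a group the IRI libraries of day 1 were the deepest (11165 to 50705 reads, against 935 to 2125 in sham). IRI libraries reached up to 10542 reads at day 2 and 12739 at day 3, against up to 1955 and 909 in sham. Depth was lower and more alike at day 7 (431 to 837 reads in IRI and 211 to 981 in sham) and day 14 (651 to 1157 and 666 to 1796). The shallowest library was that of sham rat 3 at day 7. Up to 3 reads may go unseen behind a 0, and they are worth between 68.2 and 11977 from the deepest to the shallowest library. Counting error is all that such limits and the intervals below cover. The comparison of IRI with sham used limma on log2(value + 500), with Benjamini-Hochberg adjustment over all exo-miRs of the table and a threshold of 0.05. Whether the tables share 1 scale is not given in the sources used here, so tests stay within a day unless stated.

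**Figure D1:**
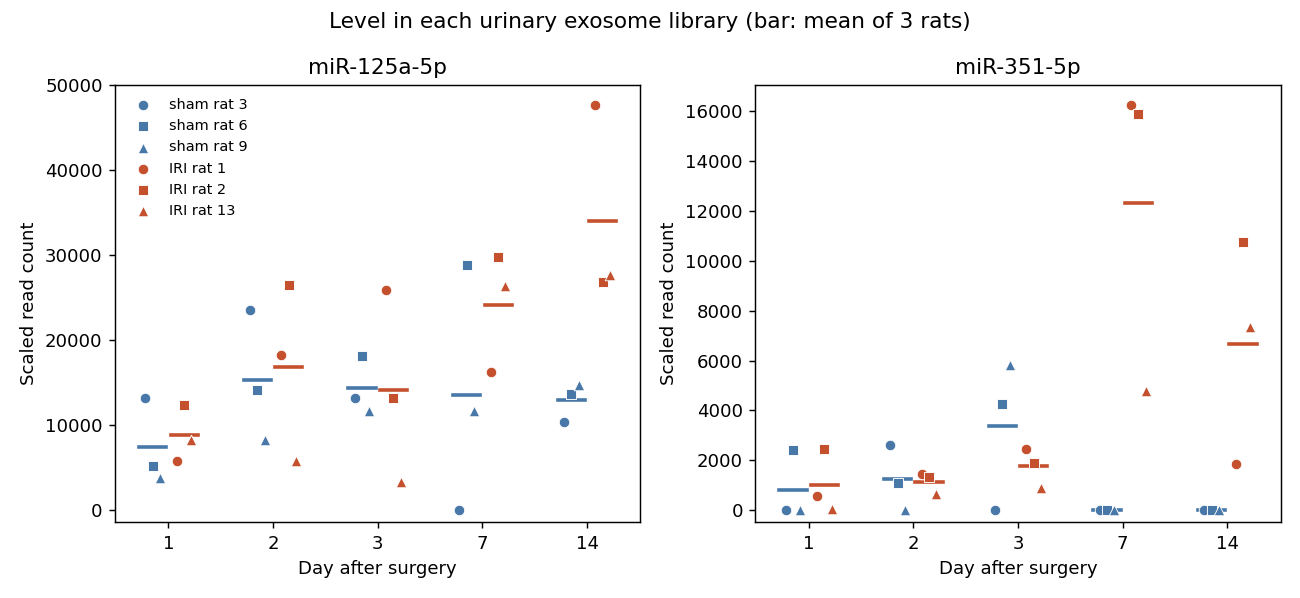
Scaled read count of miR-125a-5p (left) and miR-351-5p (right) in each of the 30 libraries, by day after surgery (days evenly spaced). Points are rats, bars are means of 3 rats; the 6 sham libraries of days 7 and 14 lie at 0 for miR-351-5p, and the 6 IRI libraries of those days lie between 1868 and 16246.

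In the injury state (days 1 and 2) miR-125a-5p did not separate the groups. At day 1 it was at 13128, 5227 and 3746 in sham rats 3, 6 and 9 and at 5772, 12401 and 8290 in IRI rats 1, 2 and 13. The group means were 7367 ± 5044 in sham and 8821 ± 3346 in IRI (SD, n = 3 rats each). The ranges overlapped, with a log2 difference of 0.37 (standard error 0.54, adjusted p = 0.837 from limma). At day 2 the sham rats were at 23542, 14106 and 8233 and the IRI rats at 18223, 26474 and 5791, so that IRI rat 13 was the lowest of the 6 and IRI rat 2 the highest. The difference of day 2 was 0.02 (standard error 0.74, adjusted p = 0.982 from limma). At day 3 miR-125a-5p was at 13203, 18143 and 11606 in sham and at 25935, 13202 and 3292 in IRI, which again spanned the sham range on both sides (difference -0.39, standard error 0.85, adjusted p = 0.912 from limma). Of all listed exo-miRs, 0.909%, 1.16% and 1.39% passed the threshold with higher levels in IRI at days 1, 2 and 3, and neither miR-125a-5p nor miR-351-5p was among them. No overlap with IRI higher was seen for 16.4%, 1.16% and 6.94%, and an unadjusted p under 0.05 for 11.8%, 10.5% and 6.94%, again without the 2 members.

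At day 7 miR-125a-5p was at 0, 28890 and 11640 in sham rats 3, 6 and 9 and at 16246, 29785 and 26380 in IRI rats 1, 2 and 13. IRI rat 1 lay below sham rat 6, so the groups overlapped. The log2 difference of 2.09 (standard error 1.43, adjusted p = 0.781 from limma) rested on sham rat 3, whose library of 211 reads held no read of miR-125a-5p, and was 0.34 without that rat. At the mean share of the IRI libraries, this library would have held 5.5 reads of it.

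At day 14 the 3 sham rats were at 10381, 13680 and 14678, and the 3 IRI rats at 47635, 26870 and 27624. Every IRI rat was thus above every sham rat, with IRI rat 1 the highest by far. The means were 12913 ± 2249 in sham and 34043 ± 11777 in IRI (SD, n = 3 rats each), a 2.64-fold ratio. The log2 difference was 1.33 (standard error 0.46, unadjusted p = 0.0223, adjusted p = 0.22 from limma), which did not pass the threshold. Fits without each rat in turn gave 1.06 to 1.47, with an adjusted p of 0.303 to 0.543 from limma. In reads, miR-125a-5p took 8, 25 and 10 of the listed reads of sham rats 3, 6 and 9 and 51, 20 and 30 of those of IRI rats 1, 2 and 13. The exact (Clopper-Pearson) 95% intervals of its share of the reads were 0.487% to 2.21%, 0.903% to 2.05% and 0.722% to 2.74% in these sham libraries. In the IRI libraries they were 3.3% to 5.76%, 1.89% to 4.71% and 1.79% to 3.76%, so that only the interval of IRI rat 1 lay clear of all 3 sham intervals.

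miR-351-5p was much rarer than miR-125a-5p in the first days. At day 1 it was at 0, 2412 and 0 in sham rats 3, 6 and 9 and at 581, 2450 and 45 in IRI rats 1, 2 and 13. At day 2 it was at 2616, 1085 and 0 in sham and at 1439, 1324 and 632 in IRI. At day 3 it was at 0, 4269 and 5803 in sham and at 2470, 1886 and 898 in IRI. The highest sham library was above the IRI range at days 2 and 3 and just under its top at day 1, and a sham library at 0 lay below it on each day, so the groups overlapped. Day by day the log2 differences were 0.42, 0.23 and -0.20, their standard errors 0.92, 0.76 and 1.01, and their adjusted p 0.89, 0.918 and 0.944 from limma. Over days 1 to 3 it was above 0 in 5 of 9 sham libraries and in 9 of 9 IRI libraries. These libraries held 289 to 2125 listed reads in sham and 691 to 50705 in IRI, and the part of depth in this was not tested.

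At day 7 miR-351-5p was at 0 in sham rats 3, 6 and 9 and at 16246, 15885 and 4796 in IRI rats 1, 2 and 13, so the groups stood apart. The IRI mean was 12309 ± 6509 (SD, n = 3 rats). The log2 difference of 4.50 (standard error 0.67, adjusted p = 0.0152 from limma) was the largest of the 68 exo-miRs of that day and had the smallest p. miR-351-5p was the only exo-miR that rose past the threshold at day 7 (1.47% of those listed), where 2.94% passed in either direction and 5.88% had an unadjusted p under 0.05. The groups did not overlap, with IRI higher, for 10.3% of the listed exo-miRs, miR-351-5p among them and miR-125a-5p not. No listed exo-miR was above 0 in fewer than 3 libraries of the series. At days 7 and 14 miR-351-5p was above 0 in the 3 IRI libraries of each day only. It may thus be listed there only through the group where it is high, and its rank, call and lack of overlap are not free of that. With at least 5 libraries above 0 required, it drops out and 0 exo-miRs pass at day 7. Removing sham rat 6 or 9, or IRI rat 1 or 2, ended the call of day 7 (differences of 4.22 to 4.50, adjusted p of 0.0537 to 0.0934 from limma). The call also ended when limma let the variance follow the mean level (adjusted p = 0.0557). With sham at 0 the size of the difference depends on the added constant, and it was 7.75 with 50 and 2.71 with 2000. The call held on removing sham rat 3 or IRI rat 13 (adjusted p of 0.0399 and 0.00871 from limma).

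At day 14 miR-351-5p was again at 0 in the 3 sham rats, and at 1868, 10748 and 7366 in IRI rats 1, 2 and 13 (mean 6661 ± 4482, SD, n = 3 rats). Its log2 difference of 3.57 (standard error 0.65, adjusted p = 0.0693 from limma) was the largest of the 79 exo-miRs and had the smallest p, but did not pass the threshold. In limma 0.0% of the exo-miRs of day 14 passed, and 9 (11.4%) had an unadjusted p under 0.05, miR-351-5p (0.000878) and miR-125a-5p among them. IRI was higher with no overlap for 11.4% of the listed exo-miRs, which include both, and 22.8% did not overlap in either direction. Without IRI rat 1, the lowest of its group, miR-351-5p passed (4.23, adjusted p = 0.0118 from limma). It did not pass without any other rat, with an adjusted p of 0.143 to 0.261 from limma. A group that is at 0 throughout has no spread, which makes the standard errors of miR-351-5p at days 7 and 14 smaller than they would be with reads in both groups.

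**Figure D2:**
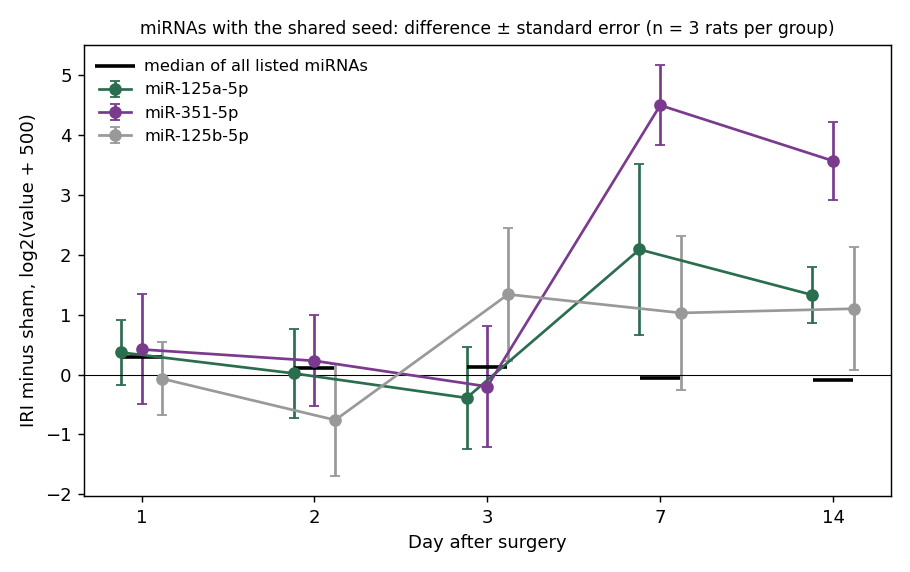
IRI minus sham difference on the log2(value + 500) scale of the 3 listed exo-miRs with the seed, by day (evenly spaced), with limma standard errors (n = 3 rats per group). Black dashes are the median of all listed exo-miRs, which lies between -0.09 and 0.30; miR-351-5p is at 4.50 and 3.57 at days 7 and 14, and miR-125a-5p at 2.09 and 1.33.

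The levels of miR-351-5p rest on few reads. At day 7 it had 8, 8 and 4 reads in IRI rats 1, 2 and 13 and at day 14 it had 2, 8 and 8, in all 20 of 1734 and 18 of 2941 listed reads. The sham libraries had 0 of 1843 and 0 of 3173 listed reads. At the mean share of the IRI libraries, the 3 sham libraries would together have held 24.9 reads at day 7 and 22.3 at day 14. Its share of the reads had an exact (Clopper-Pearson) 95% interval of 0.744% to 3.36% in IRI rat 1, 0.805% to 3.62% in IRI rat 2 and 0.13% to 1.22% in IRI rat 13 at day 7. The upper limits that 0 reads allow by the same method were 1.73%, 0.375% and 0.565% in sham rats 3, 6 and 9, so the interval of sham rat 3 overlapped those of all IRI rats, and those of sham rats 6 and 9 that of IRI rat 13. At day 14 the intervals were 0.0209% to 0.623%, 0.532% to 2.41% and 0.305% to 1.39% in IRI rats 1, 2 and 13, and the sham limits 0.518%, 0.205% and 0.552%. The interval of IRI rat 1 then overlapped all 3 sham intervals, that of IRI rat 2 the one of sham rat 9, and that of IRI rat 13 those of sham rats 3 and 9. Against the worth of 3 reads averaged over the sham libraries (6703 at day 7 and 3313 at day 14), the ratios of the IRI means were 1.84 and 2.01. These are not firm lower bounds. In sham rat 3 at day 7 alone 3 reads were worth 11977, and the counting error of the IRI means is left out.

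Its number of reads was even in each of the 20 libraries in which miR-351-5p was above 0 (2 to 32 reads). miR-125a-5p had odd and even numbers. Of the 93 exo-miRs above 0 in at least 5 libraries, 9 had only even numbers, and these include the same-seed miR-125b-5p (22 libraries). A further 2 had only multiples of 3. Among the other exo-miRs 45.0% of the low numbers (20 reads or fewer) were even. Whether each sequenced molecule entered the counts at more than 1 place in the genome was not tested. The intervals given above for miR-351-5p take its reads as independent, and are too narrow for their share if molecules were counted more than once. Taken in pairs of reads, miR-351-5p had 4, 4 and 2 pairs in IRI rats 1, 2 and 13 at day 7 and 1, 4 and 4 at day 14, and the sham libraries would have held 12.4 and 11.2 pairs at the IRI share. The IRI means become 6154 at day 7, which is below the 6703 that 0 reads allow in sham, and 3330 at day 14 against 3313, so no fold can then be stated. Dividing the values in this way was chosen after seeing the data. The log2 difference of miR-351-5p was then 3.57 at day 7 (adjusted p = 0.0241 from limma) and 2.71 at day 14 (adjusted p = 0.0916 from limma). Another list of counts issued with the study holds reads of miR-351-5p in sham libraries of these days. That list was not used here.

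**Figure D3:**
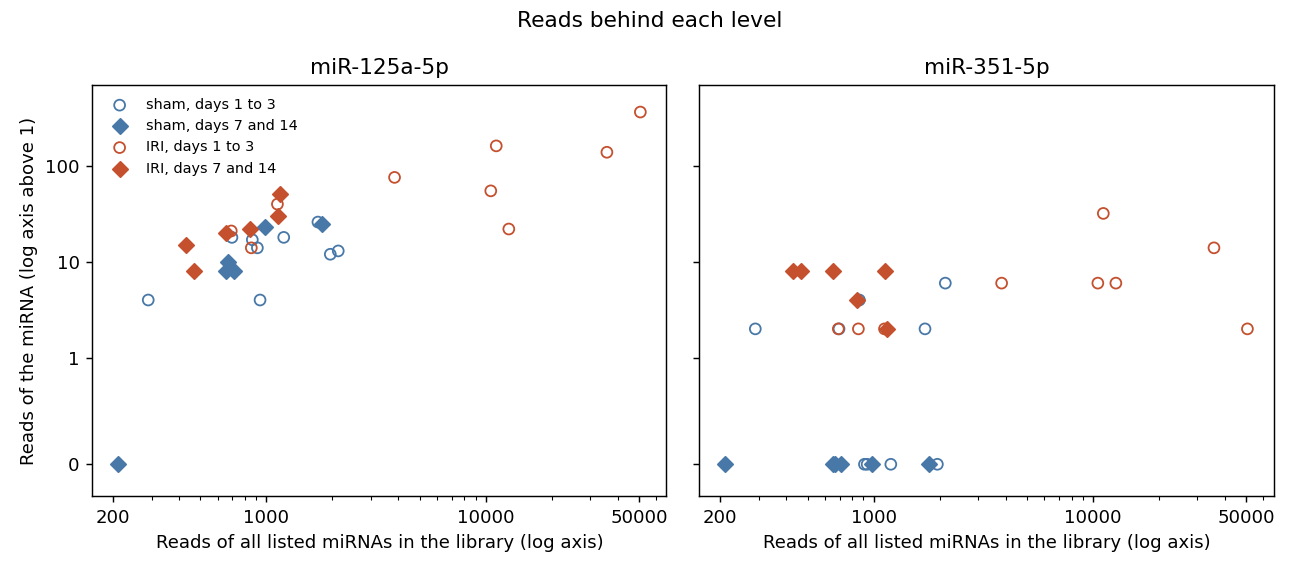
Reads of miR-125a-5p (left) and miR-351-5p (right) against the reads of all listed exo-miRs in each library, on log axes (the y axis is linear from 0 to 1). Open circles are days 1 to 3 and filled diamonds days 7 and 14; at 431 to 1157 listed reads the 6 IRI libraries of days 7 and 14 hold 2 to 8 reads of miR-351-5p, and the 6 sham libraries, at 211 to 1796 listed reads, hold 0.

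To ask whether the difference itself changed with the state, days 7 and 14 were set against days 1 and 2 over the 61 exo-miRs listed on these 4 days. This fit treated the 4 libraries of each rat as independent, so here the library and not the rat was the replicate. The IRI minus sham difference of miR-351-5p grew by 3.71 (log2) from injury to recovery, with a standard error of 0.78 and an adjusted p of 0.00374 from limma. It was 1 of 2 exo-miRs past the threshold (3.28%). With the rat as a block the call stayed (adjusted p = 0.00263 from limma), again with libraries as the units. The call was lost with the worth of 0.5 read as the added constant (3.93, adjusted p = 0.0634 from limma) and with day 14 alone as recovery (3.25, adjusted p = 0.0907 from limma), and the value ran from 2.25 to 5.95 with added constants of 2000 and 50. In 14.8% of the 61 the unadjusted p was under 0.05. Within IRI it rose by 2.57 (standard error 0.55, adjusted p = 0.00314 from limma), where 11.5% of the exo-miRs rose past the threshold and 14.8% passed in either direction. Within sham the change was -1.14 (standard error 0.55, unadjusted p = 0.0524, adjusted p = 0.548 from limma), so the sham rats at 0 make up a part of the 3.71. Both changes within a group run across tables that may differ in scale, while the 3.71 is made of differences within a day. In sham 0.0% of the exo-miRs passed in limma and 4.92% had an unadjusted p under 0.05. For miR-125a-5p the difference between the states was 1.51 (standard error 0.97, adjusted p = 0.471 from limma), with 1.3 within IRI (standard error 0.68, adjusted p = 0.219 from limma) and -0.21 within sham. Without sham rat 3 the 1.51 of miR-125a-5p became 0.14.

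On the mean of each rat over days 7 and 14, miR-351-5p was higher in IRI by 4.04 (standard error 0.43, adjusted p = 0.00178 from limma), and 3.17% of 63 exo-miRs passed, with an unadjusted p under 0.05 for 7.94%. This call held in each fit that left out 1 rat, with an adjusted p of 0.00553 to 0.0158 from limma. The 3 sham rats were all at 0, so leaving out any of them could not change the 4.04. miR-351-5p may be listed on these days only through the IRI rats, and the call is not free of that. With at least 5 libraries above 0 required it drops out, and 0 exo-miRs pass. For miR-125a-5p the difference of the rat means over both days was 1.71 (standard error 0.79, adjusted p = 0.495 from limma). All 3 IRI rats were above all 3 sham rats, as for 12.7% of the exo-miRs, but without sham rat 3 the difference was 0.76. Over days 1 and 2 the differences were 0.19 for miR-125a-5p and 0.33 for miR-351-5p (adjusted p of 0.898 and 0.871 from limma). In that state 0.0% of 81 exo-miRs passed in limma, with an unadjusted p under 0.05 for 11 of them (13.6%) and no overlap with IRI higher for 9.88%.

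**Figure D4:**
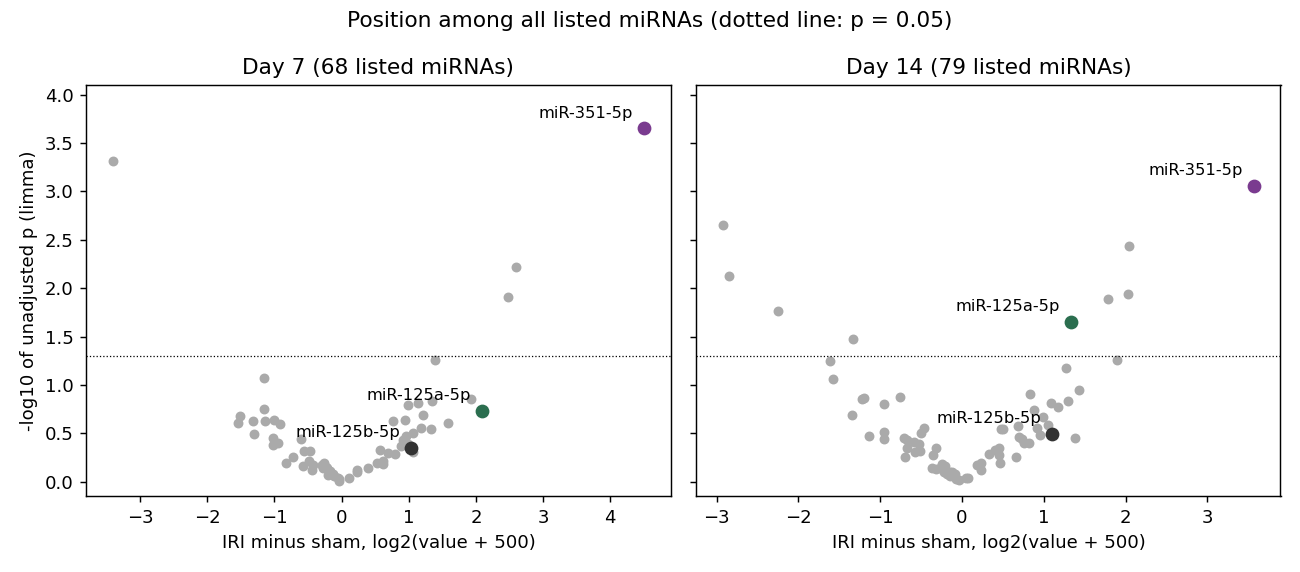
IRI minus sham difference, log2(value + 500), against -log10 of the unadjusted p from limma for all listed exo-miRs at day 7 (68) and day 14 (79). miR-351-5p has the largest difference and the smallest p on both days; miR-125a-5p lies below the dotted line, the 0.05 level, at day 7 and above it at day 14.

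From day 7 to day 14 the pair moved in opposite directions in IRI rat 1 and in the same direction in IRI rats 2 and 13. These changes run across tables that may differ in scale. In IRI rat 1 miR-351-5p went from 16246 to 1868 (8 reads to 2) while miR-125a-5p went from 16246 to 47635 (8 reads to 51). In IRI rat 2 both were lower at day 14, and in IRI rat 13 both were higher, at 7366 and 27624. As a share of the value of miR-125a-5p in the same library, miR-351-5p was at 100%, 53.3% and 18.2% in IRI rats 1, 2 and 13 at day 7 and at 3.92%, 40.0% and 26.7% at day 14. At days 1 to 3 this share was 0.543% to 27.3% in IRI libraries and 0.0% to 50% in sham libraries. These shares take the values as deposited, and those of miR-351-5p would be lower if its molecules were counted more than once. The members have 24 and 25 bases, and no correction for length was made. The log2 level of miR-351-5p less that of miR-125a-5p, averaged over days 7 and 14, was -2.17, -1.08 and -2.09 in IRI rats 1, 2 and 13 and -2.22, -5.35 and -4.76 in sham rats 3, 6 and 9. The means differed by 2.33 (p = 0.1 in a two-sided exact permutation test over rats, which cannot go lower with 3 against 3). With the values divided for repeated counting it was 1.44, with p = 0.3 in the same exact permutation test. The value of sham rat 3 is raised by its day 7 library, where both members were at 0.

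Over the 10 groups miR-125a-5p had its highest means in IRI at day 14 (34043) and day 7 (24137) and its lowest in IRI and sham at day 1 (8821 and 7367). The other 6 groups lay between 12913 and 16829. miR-351-5p had its highest means in IRI at day 7 (12309) and day 14 (6661), followed by sham at day 3 (3357 ± 3007, SD, n = 3 rats) and IRI at day 3 (1751 ± 795, SD, n = 3 rats), and its lowest in sham at days 7 and 14. For both members each group's range overlapped that of its neighbour in this order. The order runs across tables that may differ in scale.

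miR-125b-5p, the third exo-miR with this seed, separated the groups on no day. At day 7 it was at 0, 5024 and 0 in sham rats 3, 6 and 9 and at 0, 3971 and 4796 in IRI rats 1, 2 and 13. At day 14 it was at 0, 2189 and 0 in sham and at 0, 2687 and 3683 in IRI. Its log2 differences were 1.03 and 1.1 (standard errors 1.29 and 1.03, adjusted p of 0.852 and 0.697 from limma). IRI rat 1, with the highest miR-125a-5p of day 14, thus had no read of miR-125b-5p on either day. Of the 3 exo-miRs with the seed, 1 rose past the threshold at day 7 and 0 at day 14, beside 1.47% and 0.0% of all listed exo-miRs. Their median differences were 2.09 and 1.33, which are the values of miR-125a-5p itself, beside -0.05 and -0.09 over all listed exo-miRs. The 2.09 became 0.34 without sham rat 3. The summed value of the 3 was 0 to 33914 in sham and 32492 to 49641 in IRI at day 7, and 10381 to 15869 in sham and 38673 to 49503 in IRI at day 14. Since 2 of the 3 are the members, the count, medians and sums restate their values and say nothing further about the seed.

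In the genome Mir125a follows Mir99b and Mirlet7e at 542 and 354 bases (GRCr8 build). miR-99b-5p and let-7e-5p are listed on all 5 days, and neither passed the threshold on any day. At day 7 both were slightly lower in IRI in the mean log2 level (-0.56 and -0.18, adjusted p of 0.852 and 0.886 from limma). At day 14 let-7e-5p, of the let-7 family that represses growth genes, was at 2595, 6566 and 4403 in sham rats 3, 6 and 9 and at 8406, 8061 and 7366 in IRI rats 1, 2 and 13. Its groups did not overlap, and its difference of 0.83 (standard error 0.47, adjusted p = 0.596 from limma) did not pass the threshold, nor did that of miR-99b-5p (1.43, standard error 0.79, adjusted p = 0.596 from limma). Mir351 lies 660 bases from Mir503 and 951 bases from Mir322. Of this cluster only miR-503-3p is listed besides miR-351-5p, at day 3 alone, with 0, 6404 and 5803 in sham rats 3, 6 and 9 and 0, 0 and 299 in IRI rats 1, 2 and 13 (difference -2.26, standard error 1.04, adjusted p = 0.67 from limma). Sham rats 6 and 9 had the highest levels of both miR-503-3p and miR-351-5p at day 3, on few reads. miR-351-5p had 4 and 2 reads there, and miR-503-3p 2 to 6 in each of its 3 libraries above 0. The library of sham rat 9 held 289 listed reads. The neighbours of the Mir125b genes (miR-99a-5p, let-7c-5p and let-7a-5p, the first not listed at day 7) passed on no day. Their median differences at days 7 and 14 were -0.15 and -0.32.

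Likeness of the course was measured as the Euclidean distance between the 5 daily log2 differences, over the 56 exo-miRs listed on all days. The exo-miRs nearest to miR-125a-5p were let-7i-5p (1.43), miR-320-3p (1.61) and miR-30c-5p (1.78). let-7i-5p had differences of 0.99 and 0.45 at days 7 and 14. miR-351-5p stood at 3.31, place 31 of 55, where the median distance was 3.1. Seen from miR-351-5p, miR-125a-5p was the nearest, before miR-191a-5p (4.37) and miR-30c-5p (4.54), with a median distance of 6.02. The day 7 difference of miR-125a-5p in these distances, 2.09, was 0.34 without sham rat 3, and the distances were not measured without that rat. The study had also singled out the pair for its levels at days 7 and 14, so this place is not independent evidence. miR-125a-5p and miR-351-5p differed little from each other at days 1 to 3, and at days 7 and 14 miR-351-5p had the larger differences.

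The sequencing lane, as coded in the labels, largely goes with the surgery and cannot be told apart from it. Lane 3 of day 14 held sham rat 3 and IRI rat 2, with miR-125a-5p at 10381 and 26870 and miR-351-5p at 0 and 10748. Lane 4 held sham rat 9 and IRI rat 13 at days 1 and 2. There miR-125a-5p was at 3746 and 8290 at day 1 and at 8233 and 5791 at day 2, and miR-351-5p at 0 and 45 and at 0 and 632. No lane held libraries of both groups at day 3 or day 7. The set taken for kidney epithelium was miR-192-5p, miR-194-5p, miR-200a-3p, miR-200b-3p, miR-200c-3p, miR-141-3p, miR-429, miR-30a-5p and miR-30d-5p. Of these miRNAs 8 of 9 were listed at day 7 and 9 of 9 at day 14. Their summed values were 59653 to 120582 in sham and 55599 to 104322 in IRI at day 7, and 60180 to 93021 and 52304 to 87476 at day 14, so the ranges of the sums overlapped on both days. None of these miRNAs passed the threshold in limma, with 0 at an unadjusted p under 0.05 on either day. The difference was above 0 for 2 of the 8 at day 7 and 2 of the 9 at day 14, with medians of -0.60 and -0.18. miR-192-5p alone did not overlap, and only at day 14, with 22059, 11491 and 14678 in sham rats 3, 6 and 9 and 8406, 9404 and 9208 in IRI rats 1, 2 and 13 (difference -0.75, standard error 0.44, adjusted p = 0.596 from limma). Other listed miR-30 miRNAs were not in the set. At day 7 their differences were 1.93 (miR-30c-5p), 0.80 (miR-30e-5p), -0.21 (miR-30a-3p) and -1.32 (miR-30e-3p). Markers of red cells, white cells and liver were 0 of 3, 0 of 5 and 0 of 1 listed on these days, and of muscle 0 of 3 at day 7 and 1 of 3 at day 14, miR-206-3p with 1298 to 2189 in sham and 0 to 1343 in IRI.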

How the data were processed

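Small RNA of urinary exosomes (QIASeq libraries) was sequenced from 3 sham and 3 IRI rats on 5 days. The deposited signal values are scaled counts. For these the authors ran CAP-miRseq, which cuts adaptors (Cutadapt), maps reads to the rat genome, version 5 (Bowtie, through the mapper of miRDeep2), and counts them per miRNA (HTSeq). Versions and the scaling are not given in the sources used here. Fold changes, mean levels, likelihood ratios, p-values and FDR of the authors' edgeR comparisons also stand in the tables and were not used.

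A read was taken to be worth the step between low values: in every library all values up to 20 reads were whole multiples of it within 0.1. The tables hold 20 to 67 low values per library, too few to take the recovered reads as the original counts, so the planned edgeR test was not run and reads serve only to describe depth and counting error. Groups were compared with limma 3.58.1 in R 4.3.3 on log2(value + 500) over every listed miRNA, and by exact permutation (SciPy 1.17.1). The daily fits were tested on data simulated without lane effects or repeated counts, so that test does not cover these. The animal numbers in the labels pair the libraries of a rat across days. The main fit of the change between states had no term for the rat, and the rat was a block in an alternative fit. Other alternatives changed the added constant, the filter, the scaling, the variance trend, the threshold, the days and the rats left out. No libraries shared all values. Sequences are from RefSeq (GRCr8), aligned with Biopython 1.88. Column sums of the values ran from 742597 to 1906282. Members, lists and alternatives were chosen with earlier results of these data known. Named miRNAs are the members, those of the same seed, genomic neighbours and the 3 nearest in course. Marker miRNAs, those with repeated counts and the miR-30 miRNAs outside the marker set were also named. The last 2 kinds, miR-192-5p and miR-206-3p were named after their values were seen.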

Additional observations from a re-analysis of the deposited data

Results flagged for a closer look

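miR-351-5p is given here because its IRI minus sham difference was not the same in the 2 states: on the log2(value + 500) scale it was larger at days 7 and 14 than at days 1 and 2 by 3.71 (standard error 0.78, adjusted p = 0.00374 from limma over 61 exo-miRs). This fit treated the libraries of a rat as independent. With the rat as a block the adjusted p was 0.00263 from limma, again with libraries as the units. The call was lost with the worth of 0.5 read as the added constant (3.93, adjusted p = 0.0634 from limma) and with day 14 alone as recovery (3.25, adjusted p = 0.0907 from limma). In the values used here the IRI libraries were above 0 in both states, and the sham libraries were at 0 in the recovery state. Another list of counts issued with the study, not used here, holds reads of miR-351-5p in sham libraries of days 7 and 14, so these zeros are not settled. The depth of the IRI libraries also differed between the states, and its part in this result was not tested.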

How the results depend on the processing

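For miR-351-5p the recovery state call held in the 13 alternatives that gave a value (differences of 2.33 to 7.25), those without 1 rat included (3.67 to 4.23). All of them use the values with sham at 0, so leaving out a sham rat cannot change the difference. None uses the other list of counts issued with the study. The size follows the constant added: at day 7 it was 7.75 with 50, 2.71 with 2000 and 3.58 with the worth of 0.5 read. The day 7 call was lost with an intensity trend or a threshold of 0.01 (4.50 in both), and leaving out a rat gave 4.22 to 5.05. At day 14 miR-351-5p passed with constants of 50 (6.74) and 2000 (1.95) and with the trend (3.57), and ranged from 3.11 to 4.23 without 1 rat. Of the fits without 1 rat it passed only in that without IRI rat 1. With 0.5 read it did not pass (3.55, adjusted p = 0.141 from limma). miR-125a-5p at day 14 passed with the trend only (1.33, adjusted p = 0.0357 from limma). The change of miR-351-5p between states missed the threshold with 0.5 read (3.93) and with day 14 alone as recovery (3.25), and lay at 3.23 to 4.28 without 1 rat. With the rat as replicate block it was 3.71, and that of miR-125a-5p 1.51, and the block changed no call. Signs of the 2 members turned only at days 1 to 3 and in the injury state, where neither passed. With 0.5 read they were -0.80 (miR-351-5p, day 1), -0.018 (miR-125a-5p, day 2) and -0.36 (miR-351-5p, injury state), and with 50 it was 0.62 (miR-351-5p, day 3). Without 1 rat miR-351-5p ranged from -0.23 to 1.27, -0.49 to 0.83 and -1.35 to 0.48 at days 1, 2 and 3 and from -0.25 to 0.81 in the injury state. miR-125a-5p ranged from -0.42 to 0.63 at day 2, -1.02 to 0.39 at day 3 and -0.17 to 0.62 in the injury state. The causes were not tested.

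The number of exo-miRs past the threshold at days 1, 2, 3, 7 and 14 was 1, 1, 1, 2 and 0. It became 9, 1, 1, 3 and 3 with 50, 1, 2, 0, 1 and 2 with 2000, 2, 2, 0, 2 and 0 with 0.5 read, and 0, 2, 2, 0 and 4 with the trend. With equal totals it was 4 at day 1, with recentring 0 at day 3, with values divided 0 at days 2 and 3, and with the 0.01 threshold 0 at days 3 and 7. The filter on 5 libraries, which removes miR-351-5p except at days 2 and 3, gave 0 at days 2, 3 and 7, in the recovery state (2 before) and in its change from the injury state (2 before). The difference of miR-351-5p minus miR-125a-5p (2.33, p = 0.1) had p = 0.3 in the exact permutation test with 2000 (0.99), with 0.5 read (2.19) and with values divided (1.44). The change between states gave 0 with 0.5 read and with day 14 alone. The injury state had 0, 1 with 0.5 read or equal totals, and 2 with the trend. Without 1 rat the counts were 1 to 3, 0 to 1, 0 to 1, 0 to 2 and 0 to 1 on the 5 days and 0 to 2 in the injury state. The median difference of all listed exo-miRs was 0.30, 0.11, 0.13, -0.05 and -0.09 by day, and 0.11, 0.26, -0.12, 0.01 and -0.14 with equal totals. The edgeR test was not run, as stated above. Depth limits the zeros: in the library of 211 reads (sham rat 3, day 7), 2.85 reads of miR-351-5p would stand at the share of the IRI libraries.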

Other observations

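Besides miR-351-5p and miR-125b-5p, the exo-miRs whose reads were an even number in every library above 0 were miR-24-3p (18 libraries), miR-181a-5p (28), miR-181b-5p (15), miR-196b-5p (30), miR-29c-3p (13), miR-30c-5p (28) and miR-340-5p (8). The reads of miR-29b-3p (21 libraries) and miR-9a-5p (11 libraries) were a multiple of 3 in every such library. These were named after their values were seen.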
